A study of Mus musculus with 6 samples.

Results

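Genes of mitochondrial fusion, fission and mitophagy were examined in mouse liver tumors. The set holds 10 genes chosen by name, Mfn1, Mfn2, Opa1, Oma1, Dnm1l, Fis1, Mff, Pink1, Bnip3 and Bnip3l, out of 30236 genes listed in the expression table, and all 10 passed the filter on low values. Mitochondria form a network that is remodelled by opposing reactions. Mitofusins join the outer membranes of neighbouring mitochondria, OPA1 joins their inner membranes, and the dynamin-related GTPase encoded by Dnm1l constricts and divides them. Damaged or surplus mitochondria are removed by mitophagy, a selective form of autophagy, which is started either by the kinase PINK1 or by receptors in the outer membrane such as BNIP3 and BNIP3L. Hepatocytes are rich in mitochondria, and much of the activity of these proteins is set after translation, by cleavage, phosphorylation and recruitment, which RNA does not show.

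Liver tumors of both genotypes were sequenced, 3 from WT and 3 from Top1mt-KO mice, which lack the topoisomerase devoted to mitochondrial DNA. All were male C57BL/6 mice, given the carcinogen diethylnitrosamine on postnatal day 14 and carbon tetrachloride, which injures the liver and promotes tumors, from 8 weeks of age for 14 weeks, with tumors taken at 22 weeks of age. The knockout was present in the whole animal, so tumor cells and the cells around them both carried it, and tumors of similar size were compared. The values are log2 expression values as the authors deposited them. Read totals are not known from such values, and the libraries' depth is therefore unknown. The tumors are described as independent, but whether each came from its own mouse is not given in the sources used here, so p-values measure only the spread between these tumors.

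The targeted gene was checked first. Log2 values of Top1mt ran 7.71, 5.99, 8.01 for the WT labels (replicates 1 to 3) and 5.58, 6.41, 6.32 for the KO labels. Its log2 fold change of -1.13 (SE 0.52) did not pass the test (limma, unadjusted p = 0.0611, adjusted p = 0.999). The library labelled WT replicate 2 fell among the knockouts, below KO replicates 2 and 3, which goes against its label. Labels were followed all the same, so a name such as WT replicate 2 stands for the library so labelled, and each direction of KO against WT depends on the labels being right. The liver origin was checked by hepatocyte markers, and Alb, which encodes serum albumin and was the most abundant of 8 of them, had log2 values of 20.26 to 21.12 in the 6 libraries.

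No difference between the genotypes passed the test in any of the 10 genes. With limma and Benjamini-Hochberg adjustment over 22677 genes, 0 of the 10 genes had an adjusted p under 0.05, against 0 percent of all genes tested, and each of the 10 had an adjusted p of 0.999. Without adjustment, 0 of the 10 had p under 0.05, against 985 genes or 4.34 percent of all tested. The libraries labelled KO had the higher mean in 5 genes and the lower mean in 5. The median log2 fold change was -0.0057, against -0.015 over all genes tested, and the median size of the change without its sign was 0.075 against 0.208. The 10 genes also varied little within a genotype, with a median standard deviation of 0.168 against 0.385 over all genes. Much of that goes with their level. Among 6633 genes with a mean between 7.80 and 11.24, the range spanned by the 10, the median size of the change was 0.113 and the median standard deviation 0.205. The 3 values of each genotype did not overlap in 1 of the 10 genes, Oma1, against 8.28 percent of all genes tested. The 95 percent confidence intervals of the 10 log2 fold changes all included 0. The lowest end was -0.67, for Bnip3, and the highest was 0.51, for Dnm1l, so changes beyond these ends lay outside every interval. The limit differed by gene, and the upper end was 0.16 for Oma1 and 0.26 for Opa1. Changes inside a gene's own interval were not resolved with 3 tumors against 3.

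**Figure D1:**
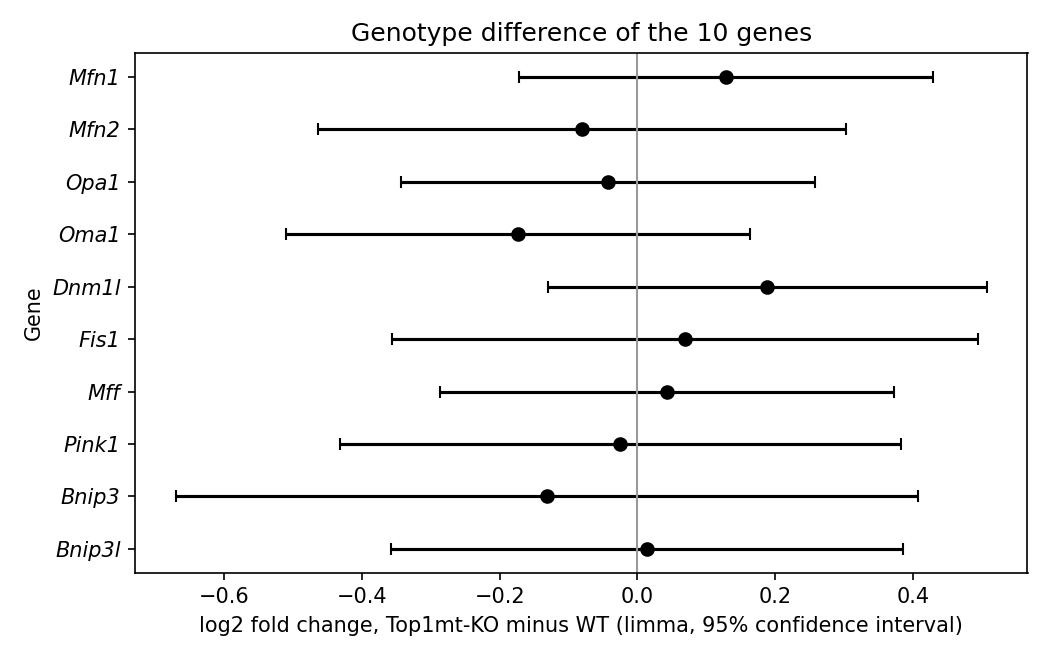
Log2 fold change of Top1mt-KO against WT (horizontal axis) for each of the 10 genes (vertical axis), as the limma estimate (points) with its 95 percent confidence interval (bars), n = 3 libraries per genotype. Estimates run from -0.17 for Oma1 to 0.19 for Dnm1l, and every interval crosses 0.

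Of the fusion genes, Mfn1 encodes a mitofusin of the outer membrane. Its log2 values were 9.79, 9.88 and 9.61 in the libraries labelled WT and 9.83, 9.87 and 9.98 in those labelled KO. The groups overlapped, with the lowest value in WT replicate 3 and the highest in KO replicate 3. The means were 9.76 ± 0.13 (SD, n = 3) and 9.89 ± 0.077 (SD, n = 3), a log2 fold change of 0.13 (SE 0.13), which fell to 0.056 without WT replicate 3. Mfn2 encodes the second mitofusin, which also tethers mitochondria to the endoplasmic reticulum. It had log2 values of 10.09, 9.81 and 10.22 in WT and 9.75, 10.16 and 9.97 in KO. Its lowest values were in WT replicate 2 and KO replicate 1, and within each genotype the spread (SD 0.21 in both, n = 3) was larger than the difference of -0.081 between them. Opa1, the dynamin-related GTPase of the inner membrane, had 10.65, 10.76 and 10.49 in WT and 10.59, 10.66 and 10.54 in KO, all KO values lying inside the WT range. The log2 fold change of -0.043 (SE 0.13) was smaller than the spread in either genotype. The signs of the small differences in Mfn2 and Opa1 depended on single libraries. Mfn2 moved to 0.026 when KO replicate 1 was left out and to 0.0083 when WT replicate 3 was, and Opa1 moved to 0.022 when WT replicate 2 was.

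The mitofusins differed in their order of libraries. Within a library, the log2 value of Mfn2 minus that of Mfn1 was 0.30, -0.065 and 0.60 in the WT tumors, and -0.080, 0.30 and -0.0066 in the KO tumors. It was low in WT replicate 2, KO replicate 1 and KO replicate 3 and highest in WT replicate 3. This difference averaged 0.28 ± 0.33 (SD, n = 3) for WT against 0.071 ± 0.20 (SD, n = 3) for KO, and the genotypes overlapped.

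Oma1 encodes a metalloprotease of the inner membrane that cleaves OPA1 when the membrane potential falls, which stops inner membrane fusion. Its log2 values were 7.91, 7.85 and 7.90 in WT and 7.64, 7.71 and 7.78 in KO. All 3 libraries labelled KO lay below all 3 labelled WT, so this was the gene of the 10 whose groups did not overlap. The gap was narrow, from 7.78 to 7.85. The mean was 7.88 ± 0.033 for WT against 7.71 ± 0.068 for KO (SD, n = 3 each), a log2 fold change of -0.17 (SE 0.15, 95 percent confidence interval -0.51 to 0.16). That standard error is wider than the spread of these values alone because limma shares variance between genes of like level. The difference did not pass the test (limma, unadjusted p = 0.268, adjusted p = 0.999), and it stayed between -0.21 and -0.14 when each library was left out in turn. The log2 value of Opa1 minus that of Oma1 was 2.75 ± 0.16 for WT against 2.88 ± 0.11 for KO (SD, n = 3 each), and the groups overlapped.

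All 3 fission genes had a higher mean in KO, none by more than the test could resolve. Dnm1l, which encodes the GTPase that assembles into a ring around the mitochondrion, had log2 values of 9.97, 9.83 and 10.02 in WT and 10.31, 9.99 and 10.09 in KO. KO replicate 2 lay below WT replicate 3, so the groups overlapped by that pair. The mean was 9.94 ± 0.10 for WT against 10.13 ± 0.16 for KO (SD, n = 3 each). The log2 fold change of 0.19, with an SE of 0.14 and an interval from -0.13 to 0.51, was the largest of the 10 without regard to sign (limma, unadjusted p = 0.209, adjusted p = 0.999). Without KO replicate 1, the highest library, it was 0.099, and without both that library and WT replicate 2 it was 0.042. Fis1 encodes an outer membrane protein of the fission machinery. Its log2 values were 9.73, 10.10 and 9.73 in WT and 10.22, 9.67 and 9.87 in KO. WT replicate 2 and KO replicate 1 were the highest, and the log2 fold change of 0.070 turned to -0.080 without KO replicate 1. Mff encodes the outer membrane receptor that recruits the Dnm1l product. It had 9.02, 9.38 and 9.14 in WT and 9.28, 9.13 and 9.25 in KO, with the same pair of libraries on top. Its log2 fold change of 0.043 turned to -0.037 without WT replicate 1. Fusion was also set against fission within each library. The mean of Mfn1, Mfn2 and Opa1 minus the mean of Dnm1l, Fis1 and Mff came to 0.60, 0.38 and 0.48 in WT against 0.12, 0.63 and 0.42 in KO, where KO replicate 1 was the lowest and KO replicate 2 the highest of all 6 libraries. The means were 0.49 ± 0.11 and 0.39 ± 0.26 (SD, n = 3 each), which differed by less than the spread.

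**Figure D2:**
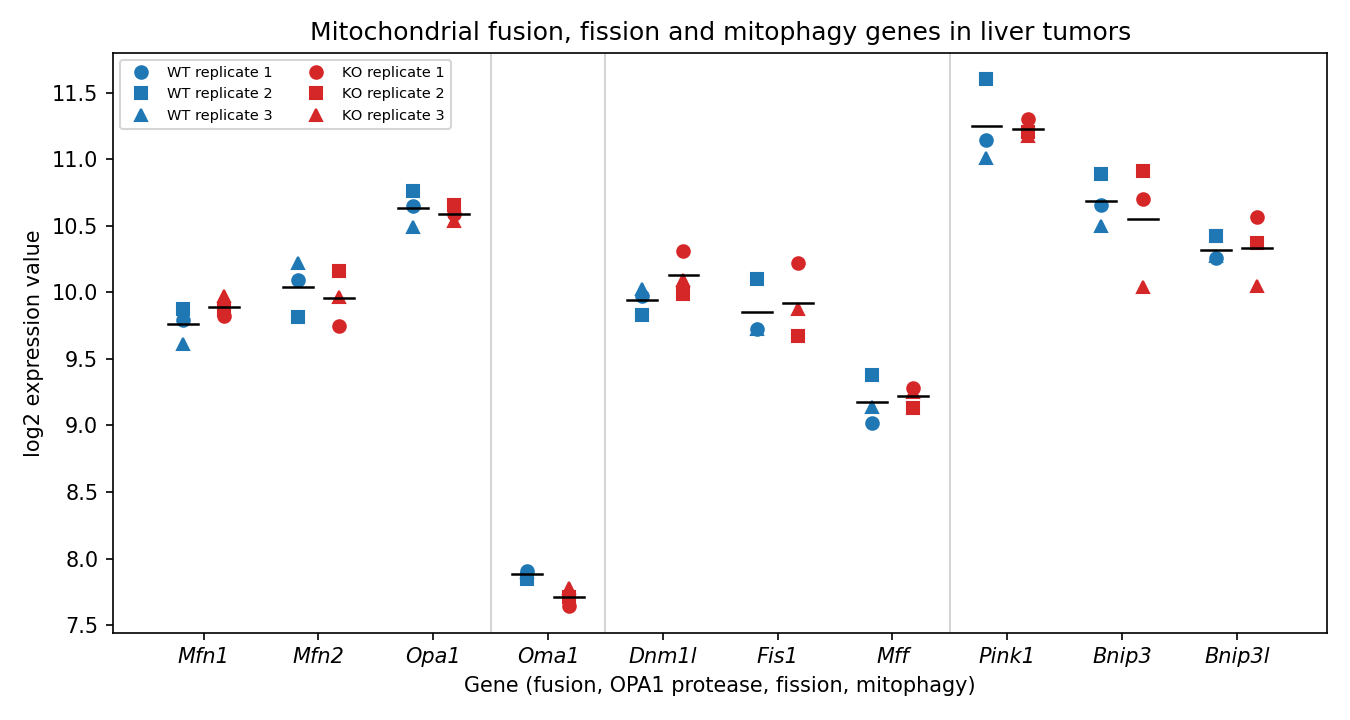
Log2 expression values (vertical axis) of the 10 genes (horizontal axis) in each library, blue for those labelled WT and red for those labelled Top1mt-KO, with circles, squares and triangles for replicates 1, 2 and 3 and a black line at the mean of 3. The genotypes overlap in every gene but Oma1, where KO values of 7.64 to 7.78 lie below WT values of 7.85 to 7.91; heights of different genes are not divided by length and are not to be compared.

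Of the mitophagy genes, Pink1 encodes the kinase that builds up on depolarised mitochondria and recruits the ubiquitin ligase Parkin. Its log2 values were 11.15, 11.60 and 11.01 in WT and 11.30, 11.21 and 11.17 in KO. The WT libraries spanned the whole range and the KO libraries lay close together inside it, with SDs of 0.31 and 0.066 (n = 3 each). The log2 fold change of -0.025 (SE 0.18) moved to 0.15 without WT replicate 2, the highest library, and then all KO values lay above the remaining WT values. Without KO replicate 3 it was 0.0020. Bnip3l encodes a receptor that binds LC3 proteins on the forming autophagosome. Its log2 values were 10.26, 10.42 and 10.27 in WT and 10.57, 10.37 and 10.05 in KO, the highest and the lowest both being KO libraries. The log2 fold change of 0.014 turned to -0.11 without KO replicate 1 and moved to 0.15 without KO replicate 3, and it was -0.016, -0.0095 and -0.0079 without WT replicate 1, WT replicate 3 and KO replicate 2. Bnip3 encodes the related receptor and had log2 values of 10.66, 10.89 and 10.50 in WT and 10.70, 10.91 and 10.04 in KO. It spanned 0.87 over the 6 libraries, the widest range of the 10, which was set by KO replicate 3 at the bottom. The mean was 10.68 ± 0.20 for WT against 10.55 ± 0.45 for KO (SD, n = 3 each). The log2 fold change of -0.13 (SE 0.23) turned to 0.12 without KO replicate 3.

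The library labelled WT replicate 2 and the library labelled KO replicate 1 stood together in several of these genes. They were the highest pair in Fis1, Mff, Pink1 and Bnip3l and the lowest pair in Mfn2, so 5 of the 10 genes set this pair apart. Over all genes tested the share was 23.3 percent, and among the 6633 genes of similar level it was 29 percent. The pairing of these libraries was known from earlier results of the same data, and the counts are a description. Transcript length moved with it among the genes with the shortest exons. Of the genes of similar level with a known length, the quartile with the shortest exons (1638 genes of up to 3238 bases) had median log2 values, relative to each gene's own mean, of 0.071 in WT replicate 2 and 0.062 in KO replicate 1, and of -0.051, -0.051, -0.016 and -0.046 in WT replicates 1 and 3 and KO replicates 2 and 3. In the quartile with the longest exons these medians lay between -0.011 in WT replicate 2 and 0.030 in KO replicate 1, so the pair stood apart there. The pair also differed in sign in the next shortest quartile, with 0.0125 and -0.0233. Fis1 and Pink1 belong to the shortest quartile with 1714 and 2673 exon bases, as do Bnip3 with 2265 and Oma1 with 2144, while Mff with 9757 and Opa1 with 7875 belong to the longest. The part of length in the levels of these genes was not tested. KO replicate 1 also differed from WT replicate 2 in another respect. Gm42418, a locus that overlaps ribosomal RNA sequence and was picked after its values were seen, made up 17.7 percent of the summed values, with the log2 undone, in KO replicate 1, 0.387 percent in WT replicate 3 and at most 0.0381 percent in the other 4 libraries.

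Bnip3 is a known target of the hypoxia-inducible factors, and its order of libraries was compared with that of 11 other hypoxia targets. KO replicate 2 was the highest and KO replicate 3 the lowest library for Bnip3. The same held for 4 of the 11 targets, against 2.96 percent of all genes tested, a pattern that was picked after the values of Bnip3 were seen. It was not particular to hypoxia targets, since it also held for 3 of 12 further genes of the inner membrane and of OPA1 processing, Apool, Parl and Pld6. It held for 1 of 15 genes of the autophagosome core (Atg12) and 1 of 3 muscle markers (Acta1). Of these followers, Acta1 had low values, from 0.073 to 1.73, and Pld6 ran from 3.29 to 4.67. How far so low a level blurs their order was not tested. In other lists this order held for 0 of 11 further fission genes and 0 of 21 further mitophagy genes. It held for 0 of 12 regulators and 0 of 8 hepatocyte markers. Of the 10 members it held for Bnip3 alone. Bnip3l, the related receptor, was highest in KO replicate 1 and lowest in KO replicate 3, so it met the rule only in part. Pdk1, the kinase that restrains pyruvate dehydrogenase, had log2 values of 10.23, 10.51 and 10.01 in WT and 10.32, 10.98 and 9.75 in KO. Egln3, an oxygen-sensing prolyl hydroxylase, had 7.25, 7.84 and 7.92 in WT and 7.90, 8.16 and 6.87 in KO. Adm, which encodes the vasodilator adrenomedullin, had 5.31, 5.04 and 4.60 in WT and 4.84, 5.41 and 4.52 in KO. The order of the WT libraries thus differed between these genes. Ankrd37, the most variable of the 4, had 3.85, 6.36 and 5.20 in WT and 6.29, 7.21 and 3.39 in KO. The other 7 targets met that rule in part or not at all. Vegfa, the angiogenic growth factor, had 10.39, 11.02 and 11.26 in WT and 11.21, 11.39 and 11.13 in KO, highest in KO replicate 2 and lowest in WT replicate 1. Car9 was also highest in KO replicate 2, and Pgk1 and Higd1a were lowest in KO replicate 3. Ldha, Ndrg1 and Slc2a1 met neither side of it. Ldha, the lactate dehydrogenase subunit and the most abundant of the 11, had 13.47 in KO replicate 3 and 12.83 to 13.57 in WT.

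**Figure D3:**
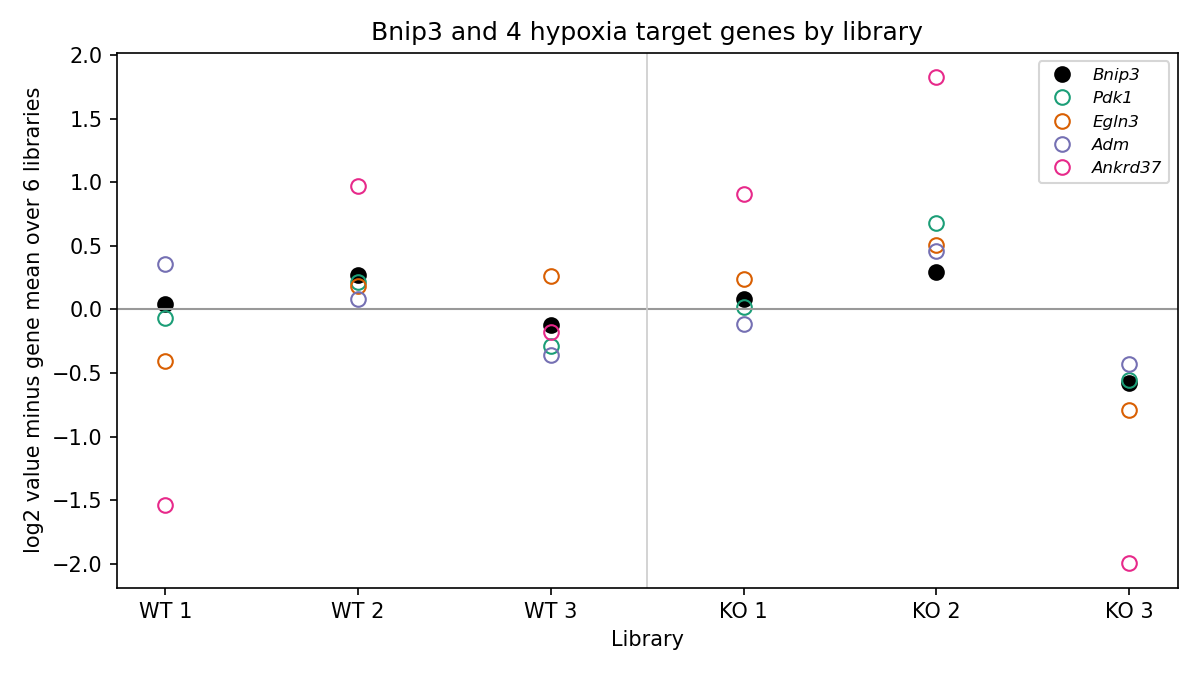
Log2 value minus the gene's mean over 6 libraries (vertical axis) for Bnip3 (filled) and the hypoxia targets Pdk1, Egln3, Adm and Ankrd37 (open) in each library (horizontal axis). All 5 genes are highest in KO 2 and lowest in KO 3, and the WT libraries show no common order; the genes were picked for that pattern.

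Bnip3 was compared further because it had the widest range of the 10 genes. The genes whose values lay nearest to those of Bnip3 were found by the root mean square difference of centred log2 values over the 6 libraries. They were Pitpnc1 at 0.080, Cipc and Smim4 at 0.086, Gm17084 at 0.089 and AU015336 at 0.094. Gm17084 and AU015336 had low values, from 2.70 to 3.74 and from 1.1 to 2.1. AU015336 was highest in WT replicate 2, unlike Bnip3. Pitpnc1 encodes a lipid transfer protein and had 9.84, 10.05 and 9.77 in WT and 9.84, 10.06 and 9.05 in KO. Cipc encodes a partner of the circadian factor CLOCK and had 9.07, 9.19 and 9.03 in WT and 9.05, 9.41 and 8.55 in KO.

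The promoter of Bnip3 is shown because Bnip3 had the widest range of the 10 genes and is a known hypoxia target. It was thus picked after its values were seen. The core letters bound by hypoxia-inducible factors, ACGTG and GCGTG, were searched on both strands in RefSeq promoter windows (GRCm38.p6) from 250 bases before to 50 bases after each start. ACGTG was present in 19.6 percent of 32851 windows, GCGTG in 32.4 percent, and at least 1 of them in 43.8 percent. The Bnip3 window held ACGTG 2 times and GCGTG 3 times. Both copies of ACGTG are the same palindrome read on each strand, and they share 4 of their letters. The stretch printed lies upstream of the gene, at chr7:138909520-138909756 on the minus strand, and capitals mark the matches.
Bnip3: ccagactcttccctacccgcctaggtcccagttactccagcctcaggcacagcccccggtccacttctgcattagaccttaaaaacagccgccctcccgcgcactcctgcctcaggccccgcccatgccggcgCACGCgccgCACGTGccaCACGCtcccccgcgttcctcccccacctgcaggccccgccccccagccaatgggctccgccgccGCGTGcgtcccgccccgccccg
Counted per gene, over all windows of a gene, ACGTG was present in 21.8 percent of 27025 genes and GCGTG in 35.2 percent. Of the 9 members with a window, ACGTG was present in 2 (Bnip3 and Mfn2) and GCGTG in 5. Of the 10 hypoxia targets with a window, ACGTG was present in 8 and GCGTG in 7. Bnip3l and Ndrg1 had no entry. For the 4 hypoxia targets with KO replicate 2 highest and KO replicate 3 lowest of all 6 libraries, the match nearest to the start is printed with 8 bases on either side, from chr2:71873214-71873234 (plus strand), chr12:54204091-54204111 (minus), chr7:110627595-110627615 (plus) and chr8:45999844-45999864 (minus).
Pdk1: ctacggggGCGTGgttccagc
Egln3: catctcagACGTGagatccag
Adm: aatctgacCACGCccaccgtc
Ankrd37: gtttgggtACGTGaggccgca
These 4 targets were picked for their order of libraries. The other targets with a window, Car9, Higd1a, Ldha, Pgk1, Slc2a1 and Vegfa, each held a match too. Genes of other lists with the same order were not examined one by one. A match is a string of letters and does not show that a factor binds there.

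Levels were compared between genes after subtracting the log2 of exon length in kilobases, taken from GENCODE M21 on GRCm38. On this scale Pink1 was the highest at 9.82 ± 0.20 (SD over 6 libraries), followed by Bnip3 at 9.44 ± 0.32, Fis1 at 9.11 ± 0.23 and Bnip3l at 8.38 ± 0.18. Dnm1l at 7.66 ± 0.16, Opa1 at 7.64 ± 0.098 and Mfn2 at 7.62 ± 0.19 could not be ranked, since Dnm1l was above Opa1 in 3 of 6 libraries and Opa1 above Mfn2 in 2 of 6. Below them came Mfn1 at 7.21 ± 0.12, Oma1 at 6.70 ± 0.11 and Mff at 5.91 ± 0.13. Apart from those 3 genes, each gene was above the next in all 6 libraries, except that Fis1 passed Bnip3 in 1 of 6, KO replicate 3, where Bnip3 was low. The mitophagy genes thus stood above the fusion genes per length in every library. Per length, Pink1 lay above 97.1 percent of 22402 genes with a known length and Mff above 68.1 percent. The exon length is the union over all annotated transcripts, which lowers genes with long alternative exons.

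In GRCm38 the fusion genes lie at chr3:32529465-32579239 (Mfn1), chr4:147873599-147904704 (Mfn2) and chr16:29579334-29654884 (Opa1), and Oma1 at chr4:103313812-103371868. The fission genes lie at chr16:16312230-16358959 (Dnm1l), chr5:136953275-136966234 (Fis1) and chr1:82724890-82752394 (Mff). The mitophagy genes lie at chr4:138313409-138326307 (Pink1), chr7:138890836-138909519 (Bnip3) and chr14:66985239-67008877 (Bnip3l). Exons of 4 of the 10 overlap those of another annotated gene. For Bnip3 the antisense gene Gm45507 covers 504 exon bases or 22.3 percent, for Dnm1l the antisense gene Gm49521 covers 243 bases, for Mff C430014B12Rik on the opposite strand covers 195, and for Pink1 a pair of microRNA genes on its own strand cover 69 and 110. The libraries were stranded, but whether the counting used strand is not given in the sources used here, so reads of Bnip3 and of its antisense gene may not have been told apart. Bnip3l has a processed copy, Bnip3l-ps. Per the study's methods, reads without a unique place in the genome were dropped, so a read fitting both loci equally would be missing from each. That copy was listed far lower, at 3.49, 3.89 and 3.51 in WT and 2.30, 2.86 and 2.87 in KO.

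Other genes of these pathways were counted in the same fit. Of 12 further genes of the inner membrane and of OPA1 processing, which include the protease Yme1l1, the prohibitins and the organisers of cristae, 6 had a higher and 6 a lower mean in KO, with a median log2 fold change of 0.038. Of 11 further fission genes, 4 were higher and 7 lower, with a median of -0.020. Of 22 further mitophagy genes, Calcoco2 was too low to be tested, 14 were higher and 7 lower, and the median was 0.060. The 15 genes of the autophagosome core, such as the LC3 and GABARAP families, had 11 higher and 4 lower, with a median of 0.048. In these 4 lists 0 genes had an adjusted p under 0.05, against 0 percent of all genes tested. An unadjusted p under 0.05 was found for 0 genes, against 4.34 percent of all genes tested (limma). Parkin, the partner of PINK1, is listed as Park2 and had log2 values of 5.62, 6.18 and 6.13 in WT and 5.31, 6.41 and 5.83 in KO, a log2 fold change of -0.13 (SE 0.35). Of the genes in these lists, 2 had genotypes with no overlap, both of them mitophagy genes, and they are named for that. Over all genes tested the share with no overlap was 8.28 percent. Rhot1, a mitochondrial GTPase that anchors mitochondria to motors and is removed after PINK1 activation, had 9.46, 9.69 and 9.62 in WT and 9.85, 9.78 and 9.75 in KO. Usp15, a deubiquitinase that opposes Parkin, had 9.66 to 9.89 in WT and at least 9.95 in every KO library. Their log2 fold changes were 0.21 and 0.16, and the limma standard error was 0.13 for both.

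Among 12 regulators of mitochondrial quality and number, 4 had a higher and 8 a lower mean in KO, and the median log2 fold change was -0.21, against -0.015 over all genes tested. In this list 2 of 12 genes had an unadjusted p under 0.05, against 4.34 percent of all genes tested, and 0 an adjusted p under 0.05 (limma). The same 2 were those with no overlap between genotypes, against 8.28 percent of all genes. The list was chosen with earlier results of these data known, so both shares are a description and cannot test for an excess. Esrra encodes ERR alpha, a nuclear receptor that drives genes of oxidative metabolism. Its log2 values were 8.72, 8.85 and 8.77 in WT and 8.14, 8.50 and 8.33 in KO. All KO libraries lay below all WT libraries, with a log2 fold change of -0.46 (SE 0.15), unadjusted p = 0.0148 and adjusted p = 0.999. Tfeb encodes a master regulator of lysosome and autophagy genes. It had 7.59, 7.47 and 7.84 in WT and 6.97, 7.09 and 7.42 in KO, also with no overlap. The log2 fold change was -0.47 (SE 0.20), unadjusted p = 0.0455 and adjusted p = 0.999. Left out in turn, no library turned the sign of either, with values from -0.55 to -0.37 for Esrra and from -0.60 to -0.37 for Tfeb. Ppargc1a, the coactivator of ERR alpha, had 8.42, 8.26 and 8.17 in WT and 8.44, 8.30 and 7.30 in KO, with KO replicate 3 apart as in Bnip3. Of the hypoxia-inducible factors themselves, Hif1a had a log2 fold change of 0.20 and Epas1 of -0.16, each with a 95 percent interval that included 0.

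The 11 hypoxia targets had 8 higher and 3 lower means in KO, a median log2 fold change of 0.094 and 0 genes with an adjusted p under 0.05. That list too was chosen with earlier results of these data known. The unadjusted p was under 0.05 for 1 of the 11, against 4.34 percent of all genes tested (limma). This was Ndrg1, a stress-induced gene of the hypoxia response. It had log2 values of 7.79, 6.93 and 7.06 in WT and 7.78, 8.00 and 8.82 in KO. WT replicate 1 therefore lay among the KO values. It had a log2 fold change of 0.94 (SE 0.33) and was highest in KO replicate 3, where Bnip3 was lowest. Ndrg1 and Bnip3 thus went in opposite directions in that tumor.

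Markers of the cell types in the tumors were read beside these genes, since bulk RNA does not tell fewer cells of a type from less RNA per cell. The 8 hepatocyte markers had 3 higher and 5 lower means in KO. Cyp2e1, a pericentral enzyme, had a log2 fold change of -0.89 (limma, unadjusted p = 0.0422), and of -0.58 without KO replicate 1, and its genotypes overlapped. Ttr went the other way, with a log2 fold change of 0.58 (limma, unadjusted p = 0.218). All its KO values lay above all its WT values, as in no other of the 8. The summed level of the 8 markers, on the log2 scale, came to 20.90, 21.30 and 20.60 in WT against 21.40, 20.86 and 21.16 in KO. It was highest in WT replicate 2 and KO replicate 1, the libraries that were on top in Fis1, Mff, Pink1 and Bnip3l. That sum is mostly Alb, and this pair was the highest in 3 of the 8 markers, while Cyp2e1 was lowest in KO replicate 1. The part of these markers in the levels of those genes was not tested. Of 6 bile duct markers, 4 had a lower mean in KO and the median log2 fold change was -1.25. Krt19 had a log2 fold change of -2.68 and Krt7 of -2.20 (unadjusted p = 0.00491 and 0.0170), while Spp1, the most abundant of them, had 0.045. The summed bile duct level came to 12.62, 12.16 and 11.59 in WT against 12.03, 11.70 and 12.58 in KO and overlapped, and the lowest marker, Cldn4, had a mean of 1.93. Spp1 makes up most of this sum. In 2 of the 6 markers, Krt19 and Epcam, all KO values lay below all WT values, against 8.28 percent of all genes tested with no overlap in either direction. The 5 endothelial markers all had a higher mean in KO, with 0.40 for Cdh5 (unadjusted p = 0.0349), and Stab2 was the most abundant. Their summed level came to 12.87, 12.62 and 12.68 in WT against 12.75, 12.84 and 13.03 in KO. In the 5 stellate and fibroblast markers, led by Dcn, the mean was lower in KO for 4, with -0.79 for Lrat (unadjusted p = 0.0259), and the summed level came to 13.02, 11.87 and 11.78 in WT against 11.01, 12.51 and 11.86 in KO. The 3 erythroid markers, led by Hbb-bs, had 1 higher and 2 lower means in KO and summed to 12.50, 11.57 and 11.72 in WT and 11.50, 11.02 and 11.36 in KO, with log2 fold changes of -0.83 for Hba-a1 and -0.82 for Hbb-bs (unadjusted p = 0.0339 and 0.0244) and of 0.013 for Alas2. Without WT replicate 1 the changes of Hba-a1 and Hbb-bs were -0.49 and -0.53. The marker lists were also chosen with earlier results of these data known, so the shares given for them are a description. The unadjusted p (limma) was under 0.05 for 1 of 8 hepatocyte, 2 of 6 bile duct and 1 of 5 endothelial markers. It was under 0.05 for 1 of 5 stellate and fibroblast and 2 of 3 erythroid markers, against 4.34 percent of all genes tested. The absence of overlap was not confined to bile duct markers. It held for 2 of 5 endothelial (Pecam1 and Cdh5), 1 of 8 hepatocyte (Ttr) and 1 of 3 erythroid (Hbb-bs) markers. Of these, Hbb-bs was lower in KO and the others higher. The share over all genes tested was 8.28 percent. In the lists of tumor (led by Afp), macrophage (Clec4f) and muscle (Myh11) markers, 0 genes had an unadjusted p under 0.05. In none of the marker lists given here was there a gene with an adjusted p under 0.05. The liver tumor markers differed between tumors of the same genotype far more than the 10 mitochondrial genes did. Afp, the fetal albumin relative made by many liver tumors, had 13.19, 10.84 and 10.62 in WT and 12.09, 8.06 and 9.13 in KO.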

How the data were processed

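RNA of 3 WT and 3 Top1mt-KO liver tumors was analysed, grouped by the sample labels. The deposited values are on a log2 scale, listed by gene symbol, and run from -2.24 to 22.0. The transform is not named in the sources used here, and whether it shrinks the changes of weakly expressed genes was not tested. Sources differ on the steps before. The paper's methods name BWA and a mouse genome called Mm 8, while the submitters' processing notes name STAR 2.5.1 and GRCm38. For trimming, counting and their own comparison the authors used Trimmomatic 0.36, Subread and DESeq2. Coordinates given are those of GRCm38 whichever was used. Of the table's columns, 3 carry no name and were left aside, and 0 others hold per-sample values.

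The comparison of KO with WT used limma 3.58.1 (R 4.3.3), by lmFit and eBayes with a trend, on 22677 genes left after the 25 percent with the lowest mean were removed. P-values were adjusted by Benjamini-Hochberg, with a threshold of 0.05. An exact permutation test of 3 against 3 allows no p below 0.1, so none was run gene by gene. The procedure was tested on simulated data. Genes named are the 10 members, Top1mt, list members with an unadjusted p under 0.05, the most abundant gene of each marker list and the 5 genes nearest to Bnip3. Further genes were named after their values were seen. A further marker list is not reported here. The members and lists were chosen with earlier results of these data known. Descriptions and figures used Python 3.11.15, pandas 2.3.3 and matplotlib 3.10.9. Alternatives were limma without trend, quantile normalization, other filters, a replicate block and libraries left out.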

Additional observations from a re-analysis of the deposited data

How the results depend on the processing

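The count of the 10 genes past the threshold was 0 under every alternative run. The count over all genes was 0 except for 4 genes with no filter on low values and 1 without KO replicate 1. Leaving out each library in turn gave 0 to 1 genes past the threshold and 1 to 3 members whose groups did not overlap, where fewer samples make overlap rarer in all genes too (15.9 to 21.5 percent of genes tested did not overlap). Without WT replicate 2 these were Mfn1, Oma1 and Pink1, and without WT replicate 3 or KO replicate 2 they were Oma1 and Dnm1l. With WT replicate 2 and KO replicate 1 both left out there were again 3, against 33.6 percent of all genes.

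Mfn1, Oma1 and Dnm1l kept their direction under every alternative run, but Mfn1 and Dnm1l not their size. Mfn1 was 0.056 without WT replicate 3, and with WT replicate 2 and KO replicate 1 both left out Mfn1 was 0.22 and Dnm1l 0.042. The log2 fold changes of the others crossed 0 when single libraries were left out, and ranged from -0.19 to 0.026 for Mfn2, -0.11 to 0.022 for Opa1, -0.080 to 0.19 for Fis1, -0.037 to 0.14 for Mff, -0.15 to 0.15 for Pink1, -0.31 to 0.12 for Bnip3 and -0.11 to 0.15 for Bnip3l. With WT replicate 2 and KO replicate 1 both left out Opa1 had 0.025, Pink1 0.11 and Bnip3l -0.053. The cause was not tested. Limma without trend, quantile normalization and the other filters changed no direction among the 10. Under quantile normalization Pink1 moved from -0.025 to -0.074 and Bnip3l from 0.014 to 0.0020. The median log2 fold change of the 10 then moved from -0.0057 to -0.027, against 0.0031 over all genes tested. With single libraries left out, the median of the 10 ran from -0.051 (without KO replicate 1) to 0.099 (without WT replicate 2).

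The replicate block gave 0 genes past the threshold, 912 at an unadjusted p under 0.05 and 0 members. Libraries with the same number did not deviate together, with correlations of -0.123, -0.0759 and 0.052 across genes for replicates 1, 2 and 3. The numbers were therefore not read as pairs of tumors. The paper describes the mice as littermates, from several litters, and which tumors shared a litter is not given in the sources used here. Depth is unknown, and how far it limits the weakly expressed genes was not tested.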
